A study of Homo sapiens with 4 samples.

Results

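The telomerase and shelterin genes described here are 10 named genes, TERT, DKC1, NOP10, NHP2, GAR1, WRAP53, TINF2, POT1, TERF1 and TERF2, out of 58884 gene IDs in the deposited table. They were chosen by name, and each matched 1 Ensembl ID. All 10 had a mean of at least 1 TPM over the libraries, the minimum for the 14912 genes that were tested. TPM, transcripts per 1000000 transcripts, is a level per gene length within a library. The RNA came from B-CPAP and TPC-1, established human lines of papillary thyroid carcinoma, each held in culture flasks submerged at 40 °C or at 37 °C. How long the exposure lasted is not settled, because the labels' growth protocol has 15 min, the treatment field 24 h and the design text 20 min. B-CPAP is known to carry an activating BRAF mutation and TPC-1 a RET fusion. Each of the 4 groups (B-CPAP at 40 °C, B-CPAP at 37 °C, TPC-1 at 40 °C and TPC-1 at 37 °C) was 1 library, so a difference between temperatures within a line had no replicate check.

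Telomerase adds telomeric repeats to chromosome ends with the reverse transcriptase TERT and an RNA template, TERC. The RNA is bound by the H/ACA proteins DKC1, NOP10, NHP2 and GAR1, which also sit on the small RNAs that guide pseudouridylation, and WRAP53 brings the assembled enzyme to Cajal bodies. Shelterin covers the telomeric repeats: TERF1 and TERF2 bind the double-stranded part, POT1 binds the single-stranded overhang, and TINF2 joins these parts. TERT is silent in most adult tissues and is often switched on in thyroid cancers by promoter mutations that create binding sites for ETS factors. The promoter genotype of the lines was not analysed here, and the sequences below are the reference.

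The promoter of TERT is shown because transcription from it is the known switch of telomerase activity, and that of NOP10 because NOP10 was the most abundant of the 10 genes and held the ETS core that the TERT window lacked. Both are the 250 bases before the start annotated by RefSeq on GRCh38.p14, on the gene's own strand (TERT, chr5:1295069-1295318, minus strand; NOP10, chr15:34343137-34343386, minus strand). Capitals mark matches to 3 motifs searched on both strands, the ETS core CCGGAA, the E-box CACGTG bound by MYC and MAX, and the GC box GGGCGG bound by SP1.
TERT: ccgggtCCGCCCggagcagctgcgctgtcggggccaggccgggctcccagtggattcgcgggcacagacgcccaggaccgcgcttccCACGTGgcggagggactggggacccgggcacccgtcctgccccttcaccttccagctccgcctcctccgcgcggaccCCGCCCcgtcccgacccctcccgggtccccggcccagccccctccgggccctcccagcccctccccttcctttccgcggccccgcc
NOP10: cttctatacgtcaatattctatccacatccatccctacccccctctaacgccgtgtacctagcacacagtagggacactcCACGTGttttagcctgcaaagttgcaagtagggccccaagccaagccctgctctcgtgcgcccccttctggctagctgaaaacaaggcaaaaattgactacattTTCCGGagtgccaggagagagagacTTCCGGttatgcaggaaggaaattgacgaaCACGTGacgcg
The TERT window had a GC content of 78.8%, with 1 E-box at positions -163 to -158 counted from the start, 2 GC boxes and no match to the ETS core. The NOP10 window had a GC content of 52%, with 2 ETS cores, 2 E-boxes and no GC box. Of 35116 promoters of the same length, 14.5% held the ETS core, 6.35% the E-box and 42.6% the GC box. Entries were found for 8 of the 10 genes, with 12 starts in all. Among the other entries, NHP2 held 5 GC boxes and DKC1 held 4, of which a pair overlapped, and an ETS core was found for GAR1, POT1 and TINF2. A match describes these letters and is not a measured binding site, and the absence of a match says only that the letters are not in the window.

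Depth, estimated from the steps of the low TPM values, was 20704722 to 24466576 reads per library. For 30 of the 40 values of the 10 genes the estimated reads came out whole within 0.02 of a read. Mitochondrially encoded genes took 23.9% of TPM in B-CPAP at 40 °C, 22.0% in B-CPAP at 37 °C, 19.9% in TPC-1 at 40 °C and 16.8% in TPC-1 at 37 °C. Thyroid and epithelial markers matched the labels in part, since PAX8 stood at 98.9 to 284.4 TPM and KRT8 and KRT18 at 138.9 to 569.8 TPM. The thyroid gene SLC5A5 was listed at 0 in all libraries, NKX2-1 was at 0 in both TPC-1 libraries, CDH1 was at or below 0.0439 TPM, and the leukocyte genes PTPRC and CD3E were at 0. The stromal gene COL3A1 stood at 10.7 TPM in B-CPAP at 40 °C and 8.15 TPM in B-CPAP at 37 °C and was at 0 in both TPC-1 libraries, and its part in the differences between the lines was not tested.

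**Figure D1:**
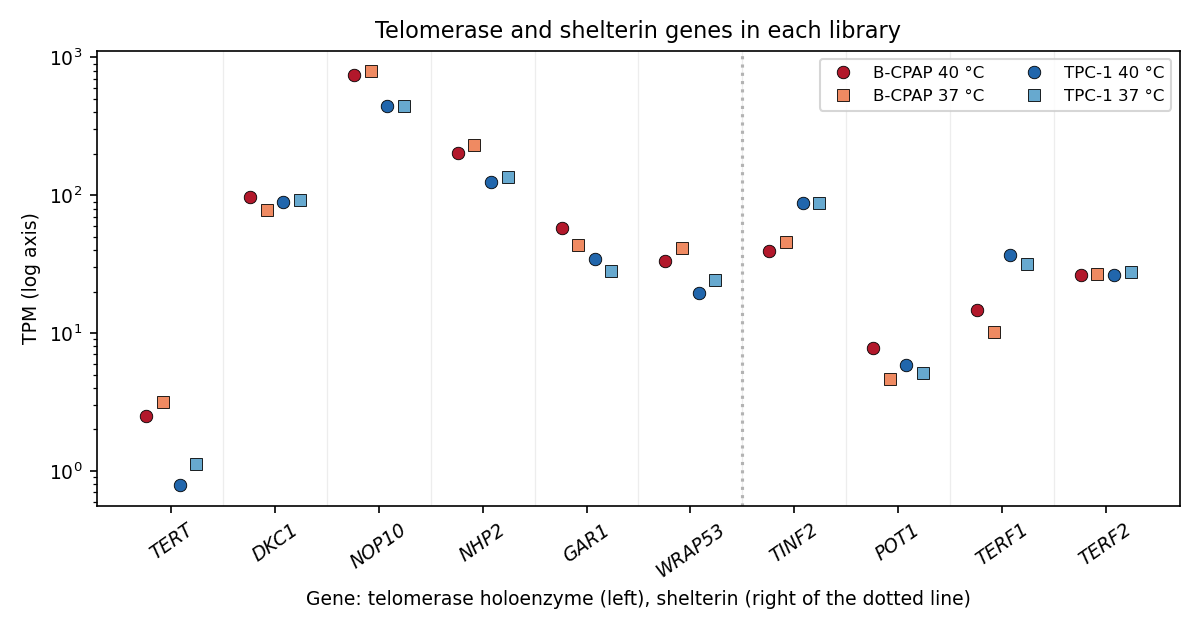
TPM (log axis) of the 6 telomerase genes, left of the dotted line, and the 4 shelterin genes, right of it, with 1 point per library: circles are 40 °C, squares are 37 °C, reds are B-CPAP and blues are TPC-1. TERT is the lowest gene in every library, at 0.790 to 3.15 TPM, and NOP10 the highest, at 440.5 to 790.3 TPM.

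TERT, the catalytic subunit (ENSG00000164362, chromosome 5, 1253147 to 1295069, minus strand), was detected in all 4 libraries at a low level. Its level was 2.52 TPM in B-CPAP at 40 °C, 3.15 TPM in B-CPAP at 37 °C, 0.790 TPM in TPC-1 at 40 °C and 1.11 TPM in TPC-1 at 37 °C. These values rest on an estimated 81 reads in B-CPAP at 40 °C, 108 in B-CPAP at 37 °C, 21 in TPC-1 at 40 °C and 31 in TPC-1 at 37 °C. Both B-CPAP libraries lay above both TPC-1 libraries, and in each line the library at 40 °C was the lower; with adjustment for GC content that order turned in B-CPAP, to a log2 difference of 0.20. In these bulk libraries, less RNA per cell and fewer cells with the RNA cannot be told apart.

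The TERT level in B-CPAP was 3.19 times that in TPC-1 at 40 °C, with a 95% counting interval of 1.95 to 5.42, and 2.82 times that in TPC-1 at 37 °C, with an interval of 1.88 to 4.36. Such intervals were computed from the estimated reads of a pair of libraries by the exact Clopper-Pearson method and cover counting error only. Over both temperatures the difference was 0.97 ± 0.22 (SE, 2 libraries a line) on the log2(TPM + 1) scale, which understates changes of low genes, and limma gave an adjusted p of 0.0140. That call rests on the filter and on single libraries: the limma adjusted p was 0.0588 with no filter, and with 1 library left out it ran from 0.0496 (without B-CPAP at 40 °C) to 0.103 (without TPC-1 at 40 °C). Between temperatures, the ratio of 40 °C over 37 °C was 0.800 in B-CPAP (interval 0.592 to 1.08) and 0.709 in TPC-1 (interval 0.387 to 1.27). Both intervals include 1, so no temperature difference of TERT was detectable at this depth.

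Of protein-coding genes, 48.1% lay below TERT in B-CPAP at 40 °C and 51.6% in B-CPAP at 37 °C, against 41.9% in TPC-1 at 40 °C and 44.3% in TPC-1 at 37 °C. TERC, the template RNA, is not polyadenylated and stood at or below 0.264 TPM, under the filter, so it was not tested.

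Dyskerin and its partners were far more abundant than TERT. DKC1 (ENSG00000130826, chromosome X, 154762742 to 154777689, plus strand), the pseudouridine synthase of the complex, stood at 96.9 TPM in B-CPAP at 40 °C, 78.4 TPM in B-CPAP at 37 °C, 89.95 TPM in TPC-1 at 40 °C and 92.2 TPM in TPC-1 at 37 °C. The lines overlapped, with the B-CPAP libraries as the highest and the lowest. The ratio of DKC1 in B-CPAP over TPC-1 was 1.08 at 40 °C (interval 1.02 to 1.14) and 0.850 at 37 °C (interval 0.803 to 0.900). Over both temperatures limma gave -0.063 ± 0.11 (SE) with an adjusted p of 0.648, a sign that turned when libraries were centred on their median or rescaled without mitochondrial genes.

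NOP10 (ENSG00000182117, chromosome 15, 34341713 to 34343177, minus strand), the smallest H/ACA core protein, stood at 738.5 TPM in B-CPAP at 40 °C, 790.3 TPM in B-CPAP at 37 °C, 446.5 TPM in TPC-1 at 40 °C and 440.5 TPM in TPC-1 at 37 °C. NHP2 (ENSG00000145912, chromosome 5, 178149460 to 178153967, minus strand), which binds the H/ACA RNA beside NOP10, stood at 202.6 TPM in B-CPAP at 40 °C, 232.2 TPM in B-CPAP at 37 °C, 125.1 TPM in TPC-1 at 40 °C and 136.5 TPM in TPC-1 at 37 °C. For both genes the lines did not overlap, with the B-CPAP libraries above the TPC-1 libraries. The NOP10 level in B-CPAP was 1.65 times that in TPC-1 at 40 °C and 1.79 times at 37 °C, a limma difference of 0.78 ± 0.065 with an adjusted p of 0.000518. The NHP2 level in B-CPAP was 1.62 times that in TPC-1 at 40 °C and 1.70 times at 37 °C, a limma difference of 0.73 ± 0.074 with an adjusted p of 0.000995. Reads of NHP2 may be shared with RMND5B on the opposite strand, since 414 of the 1510 exon bases of NHP2 (27.4%) overlap it and the kit did not mark strand. RMND5B stood at 7.14 to 9.62 TPM, and the processed pseudogenes NHP2P1 and NHP2P2 at or below 1.24 TPM.

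GAR1 (ENSG00000109534, chromosome 4, 109815510 to 109824740, plus strand), which joins the complex late in its maturation, stood at 57.9 TPM in B-CPAP at 40 °C, 43.7 TPM in B-CPAP at 37 °C, 34.5 TPM in TPC-1 at 40 °C and 28.2 TPM in TPC-1 at 37 °C. WRAP53 (ENSG00000141499, chromosome 17, 7686071 to 7703502, plus strand), the Cajal body protein, stood at 33.1 TPM in B-CPAP at 40 °C, 41.4 TPM in B-CPAP at 37 °C, 19.5 TPM in TPC-1 at 40 °C and 24.3 TPM in TPC-1 at 37 °C. The B-CPAP libraries were again above the TPC-1 libraries for both genes, while the 2 genes were ordered oppositely by temperature within each line. The GAR1 level in B-CPAP was 1.68 times that in TPC-1 at 40 °C and 1.55 times at 37 °C, a limma difference of 0.67 ± 0.10 with an adjusted p of 0.00342. The WRAP53 level in B-CPAP was 1.69 times that in TPC-1 at 40 °C and 1.71 times at 37 °C, a limma difference of 0.74 ± 0.10 with an adjusted p of 0.00286. Without strand marks, reads of genes that overlap on opposite strands cannot be told apart for any of the 10 genes.

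The levels of NOP10, NHP2, GAR1 and TERT relative to DKC1 differed between the lines beyond counting error. NOP10 stood at 7.62 times DKC1 in B-CPAP at 40 °C and 10.1 times in B-CPAP at 37 °C, against 4.96 times in TPC-1 at 40 °C and 4.78 times in TPC-1 at 37 °C. NHP2 stood at 2.09 times DKC1 in B-CPAP at 40 °C and 2.96 times in B-CPAP at 37 °C, against 1.39 times in TPC-1 at 40 °C and 1.48 times in TPC-1 at 37 °C. DKC1 stood at 38.5 times TERT in B-CPAP at 40 °C and 24.9 times in B-CPAP at 37 °C, against 113.9 times in TPC-1 at 40 °C and 82.8 times in TPC-1 at 37 °C. NOP10 over GAR1 overlapped between the lines, at 12.8 in B-CPAP (interval 11.8 to 13.8) against 13.0 in TPC-1 (interval 11.6 to 14.5) at 40 °C, and at 18.1 in B-CPAP (interval 16.6 to 19.7) against 15.6 in TPC-1 (interval 13.9 to 17.6) at 37 °C. These are TPM ratios within a library, per exon length, and do not depend on how libraries are scaled to each other. Protein was not measured.

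Of the shelterin genes named at the outset, TERF1 and TINF2 were lower in B-CPAP, and TERF2 and POT1 were not called between the lines. The shelterin subunit ACD, given further below, was called higher in B-CPAP. TERF1 (ENSG00000147601, chromosome 8, 73008864 to 73048122, plus strand), which binds double-stranded repeats and helps their replication, stood at 14.7 TPM in B-CPAP at 40 °C, 10.2 TPM in B-CPAP at 37 °C, 36.8 TPM in TPC-1 at 40 °C and 31.5 TPM in TPC-1 at 37 °C. TINF2 (ENSG00000092330, chromosome 14, 24239643 to 24242674, minus strand), the bridge of the complex, stood at 39.4 TPM in B-CPAP at 40 °C, 45.6 TPM in B-CPAP at 37 °C, 87.8 TPM in TPC-1 at 40 °C and 87.1 TPM in TPC-1 at 37 °C. For both genes all B-CPAP values lay below all TPC-1 values. The TERF1 level in B-CPAP was 0.400 times that in TPC-1 at 40 °C and 0.324 times at 37 °C, a limma difference of -1.40 ± 0.13 with an adjusted p of 0.000699. The TINF2 level in B-CPAP was 0.449 times that in TPC-1 at 40 °C and 0.523 times at 37 °C, a limma difference of -1.03 ± 0.10 with an adjusted p of 0.000861. The processed pseudogenes TERF1P1 to TERF1P5 were at or below 0.155 TPM.

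TERF2 (ENSG00000132604, chromosome 16, 69355561 to 69408571, minus strand), which keeps chromosome ends from being joined, was the flattest of the 10 genes, at 26.6 TPM in B-CPAP at 40 °C, 26.7 TPM in B-CPAP at 37 °C, 26.6 TPM in TPC-1 at 40 °C and 27.9 TPM in TPC-1 at 37 °C. The counting intervals of its ratios between the lines at each temperature and between temperatures in each line all included 1, with bounds between 0.866 and 1.10. POT1 (ENSG00000128513, chromosome 7, 124822386 to 124929983, minus strand), which caps the overhang, stood at 7.81 TPM in B-CPAP at 40 °C, 4.64 TPM in B-CPAP at 37 °C, 5.87 TPM in TPC-1 at 40 °C and 5.16 TPM in TPC-1 at 37 °C. The POT1 values of the lines overlapped, with the B-CPAP libraries as the highest and the lowest. The ratio of POT1 in B-CPAP over TPC-1 was 1.33 at 40 °C (interval 1.11 to 1.59) and 0.899 at 37 °C (interval 0.733 to 1.10). Limma gave -0.031 ± 0.11 with an adjusted p of 0.817 for TERF2 and 0.11 ± 0.19 with an adjusted p of 0.626 for POT1 between the lines. A p above the threshold does not show that the lines are alike. Among genes annotated over the 10, POT1-AS1, which overlaps 111 exon bases of POT1 on the opposite strand, stood at 0.127 to 0.175 TPM. SNORA36A, SNORA56 and MIR664B within DKC1, AC026464.3 over TERF2, and RNU6-285P and AC022893.3 opposite TERF1 were listed at 0 in all 4 libraries.

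The RNAs of both proteins that bind double-stranded repeats stood in opposite order in the lines. TERF1 stood at 0.554 times TERF2 in B-CPAP at 40 °C (interval 0.506 to 0.606) and 0.381 times in B-CPAP at 37 °C (interval 0.346 to 0.420). In TPC-1 it stood at 1.38 times TERF2 at 40 °C (interval 1.275 to 1.501) and 1.13 times at 37 °C (interval 1.04 to 1.22). TERF1 was thus below TERF2 in both B-CPAP libraries and above it in both TPC-1 libraries. That order rests on exon lengths of 8831 bases for TERF1 and 5621 bases for TERF2, and other lengths were not tried for this ratio. A change of length common to all libraries would leave the relative difference of the ratio between the lines as it is.

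**Figure D2:**
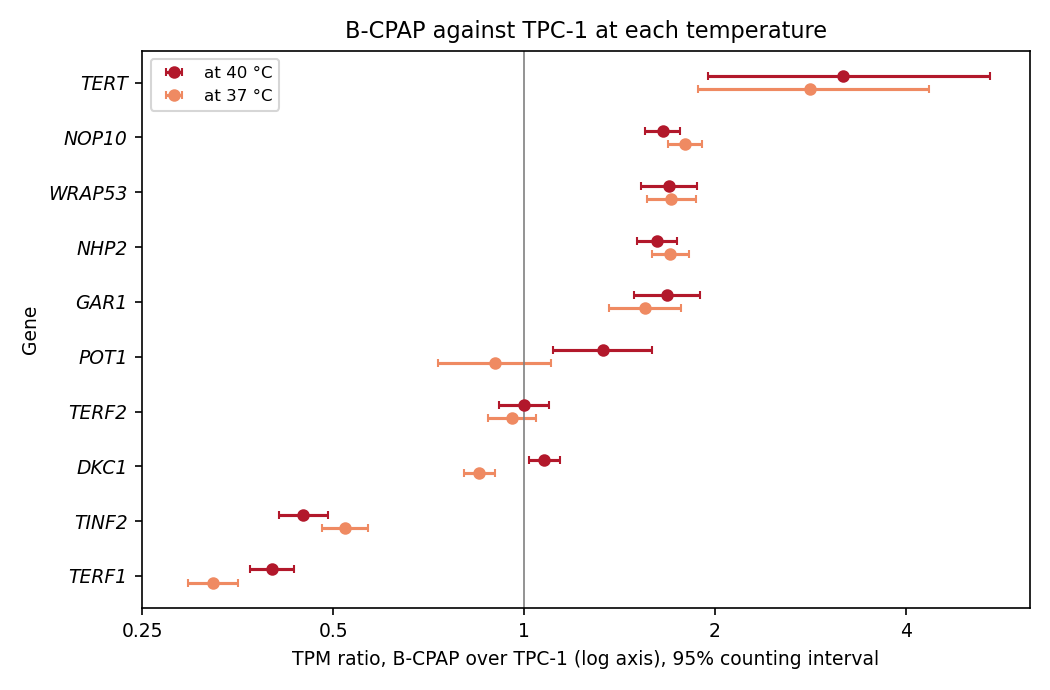
TPM ratio of B-CPAP over TPC-1 (log axis) for each gene at 40 °C (dark) and at 37 °C (light); bars are 95% counting intervals of 2 libraries. TERT, NOP10, WRAP53, NHP2 and GAR1 lie above 1 at both temperatures, and TINF2 and TERF1 lie below 1 at both. DKC1 and POT1 lie above 1 at 40 °C and below it at 37 °C. The intervals of TERF2 at both temperatures and of POT1 at 37 °C include 1.

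Between the lines, limma called 7 of the 10 genes at an adjusted p of 0.05, of which 5 were higher in B-CPAP (TERT, NOP10, NHP2, GAR1 and WRAP53) and 2 lower (TINF2 and TERF1). Of all genes tested, 29.9% were called higher and 32.8% lower in B-CPAP, so 7 calls among 10 genes is near the share of all genes and is not a result about telomere genes. Of the 6 telomerase genes 5 were called higher and none lower, and of the 4 shelterin genes 2 were called lower and none higher; with so few genes these counts are a description, and nothing is read from them against the shares of all genes. Each gene had 1 residual degree of freedom, and its own spread is how far the lines' difference varied between the temperatures, not the spread between cultures. Limma draws that spread toward the spread of other genes at a like level, so an SE is not the gene's own spread alone. For TERT the difference was 0.97 at 40 °C and 0.97 at 37 °C, yet its SE was 0.22, and 0.12 without the intensity trend. With either TPC-1 library left out, none of the 10 genes was called, and 2911 to 3014 genes were called in place of 9349. Without B-CPAP at 37 °C the calls were NOP10, TINF2 and TERF1, and without B-CPAP at 40 °C they were TERT, NOP10, NHP2, TINF2 and TERF1. The directions of these 7 genes were the same in all these fits.

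The order of the levels was similar in the 4 libraries. NOP10 had rank 1, NHP2 rank 2, DKC1 rank 3, POT1 rank 9 and TERT rank 10 in each. TERF1 had rank 8 in both B-CPAP libraries and rank 5 in both TPC-1 libraries, and WRAP53 had rank 6 in both B-CPAP libraries and rank 8 in both TPC-1 libraries. Some neighbours did not differ beyond counting error. In both TPC-1 libraries these were DKC1 with TINF2 and TERF1 with GAR1, and in TPC-1 at 37 °C also GAR1 with TERF2. In B-CPAP at 37 °C they were TINF2 with GAR1 and GAR1 with WRAP53. TINF2 and WRAP53 were not neighbours in that library and were not compared there. In B-CPAP at 40 °C every neighbouring pair differed beyond counting error.

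For each of the 7 genes called between the lines, the log2 differences between temperatures were smaller than those between lines. No gene of the 10 was 2-fold apart on the log2(TPM + 1) scale in either line, where 3.9% of all genes were in B-CPAP and 3.48% in TPC-1. Over both lines limma called none of the 10 and none of all genes (0.0%), with 2905 genes at an unadjusted p under 0.05 and a smallest adjusted p of 0.0871. The limma adjusted p-values of the 10 genes ran from 0.223 for GAR1 to 0.852 for TERF2, and those with an unadjusted p under 0.05 were GAR1 (0.02004), WRAP53 (0.0328) and TERF1 (0.0398). The median difference of the 10 genes was -0.053 in B-CPAP, beside 0.089 for all genes tested, and -0.012 in TPC-1, beside 0.027 for all genes tested.

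In B-CPAP, the counting interval of 40 °C over 37 °C lay above 1 for 4 genes (DKC1, GAR1, POT1 and TERF1) and below 1 for 4 (NOP10, NHP2, WRAP53 and TINF2), beside 36.4% and 21.8% of all genes. In TPC-1 it lay above 1 for GAR1 and TERF1 and below 1 for NHP2 and WRAP53, beside 21.5% and 16.1% of all genes. These counts are of 10 genes and are not read as differing from those of all genes.

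GAR1 and TERF1 were higher at 40 °C in both lines. The ratio of GAR1 was 1.32 in B-CPAP (interval 1.19 to 1.47) and 1.22 in TPC-1 (interval 1.06 to 1.41). The ratio of TERF1 was 1.45 in B-CPAP (interval 1.31 to 1.60) and 1.17 in TPC-1 (interval 1.093 to 1.248). WRAP53 was lower at 40 °C in both lines, with ratios of 0.800 in B-CPAP (interval 0.741 to 0.863) and 0.806 in TPC-1 (interval 0.721 to 0.899). Its log2 difference with adjustment for GC content was -0.11 in B-CPAP, against -0.31 without it, and -0.21 in TPC-1, against -0.30. For NHP2 the ratio was 0.873 in B-CPAP (interval 0.824 to 0.924) and 0.916 in TPC-1 (interval 0.844 to 0.994). With adjustment for GC content the lower level of NHP2 at 40 °C was gone in both lines, with log2 differences of 0.062 in B-CPAP and -0.0011 in TPC-1. POT1 had the largest ratio of the 10 genes, 1.68 in B-CPAP (interval 1.41 to 2.02), against 1.14 in TPC-1 (interval 0.927 to 1.40), which includes 1. With adjustment for GC content the log2 difference of POT1 was 0.25 in B-CPAP, against 0.64 without it, and -0.0065 in TPC-1, against 0.16.

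DKC1, NOP10 and TINF2 differed in opposite directions in the lines in the TPM as deposited, but not under every scaling. The DKC1 ratio of 40 °C over 37 °C was 1.24 in B-CPAP (interval 1.17 to 1.31) and 0.975 in TPC-1 (interval 0.920 to 1.03). NOP10 had a ratio of 0.934 in B-CPAP (interval 0.888 to 0.983) and 1.01 in TPC-1 (interval 0.942 to 1.09). The TINF2 ratio was 0.865 in B-CPAP (interval 0.785 to 0.954) and 1.01 in TPC-1 (interval 0.935 to 1.09). With median centring NOP10 (log2 difference -0.28 in B-CPAP and -0.074 in TPC-1) and TINF2 (-0.39 in B-CPAP and -0.082 in TPC-1) were lower at 40 °C in both lines. With quantile normalization DKC1 (0.33 in B-CPAP and 0.0046 in TPC-1) and NOP10 (0.077 in B-CPAP and 0.071 in TPC-1) were higher in both, and without mitochondrially encoded genes DKC1 was (0.34 in B-CPAP and 0.019 in TPC-1). In TPC-1 all 3 intervals include 1, and the difference between the lines could not be tested, since a fit with line, temperature and their interaction leaves no residual degrees of freedom.

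**Figure D3:**
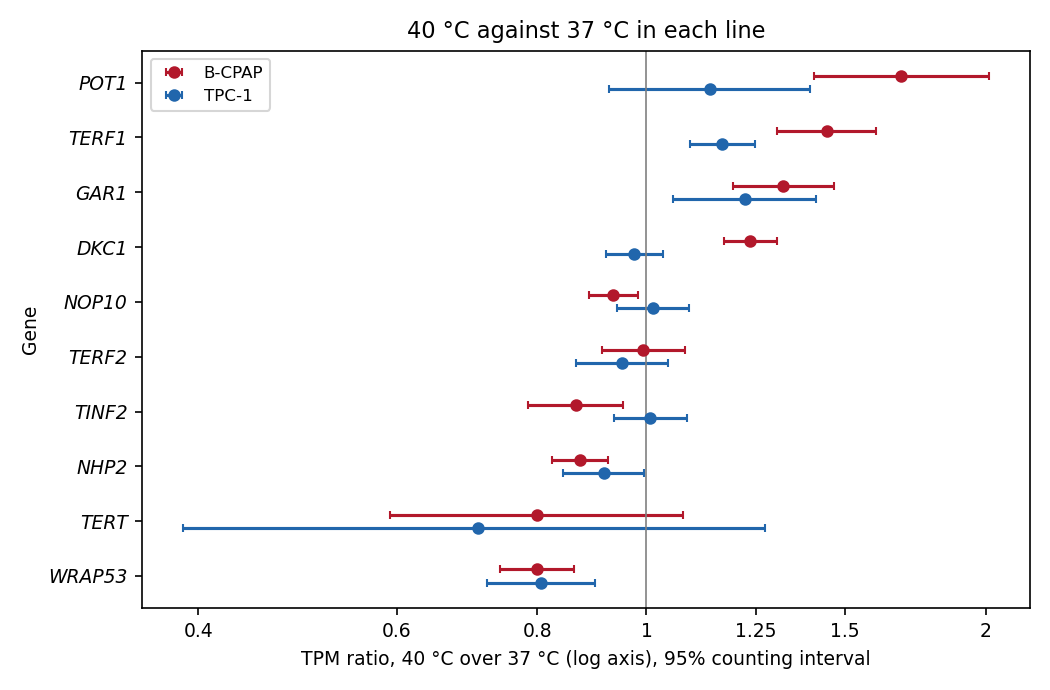
TPM ratio of 40 °C over 37 °C (log axis) for each gene in B-CPAP (red) and TPC-1 (blue); bars are 95% counting intervals of 2 libraries. POT1, TERF1 and GAR1 lie above 1 in both lines, WRAP53, TERT, NHP2 and TERF2 lie below 1 in both, and the intervals of TERT are the widest.

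The temperature differences of the 10 genes were lower the higher their GC content. POT1, with the lowest GC content of its longest transcript (37.6%), had the largest log2 difference in B-CPAP, 0.64, and TERT, with the highest (65.7%), was at -0.24 in both lines. Across the 10 genes Spearman's rho of GC content with the log2 difference was -0.90 in B-CPAP and -0.88 in TPC-1, and across 11819 protein-coding genes it was -0.80 in B-CPAP and -0.59 in TPC-1. The points of a line share both of its libraries, so these are descriptions with no test. For the difference between the lines, rho was 0.47 across the 10 genes and 0.038 across the protein-coding genes. After adjustment of each library for GC content, rho across the 10 genes was -0.55 in each line.

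Set beside protein-coding genes within 2 percentage points of their own GC content, 5 of the 10 genes in B-CPAP and 7 in TPC-1 lay between the quartiles. GAR1 and TERF1 lay above the upper quartile and WRAP53 below the lower quartile in both lines. GAR1 differed by 0.40 in B-CPAP against an upper quartile of 0.32, and by 0.28 in TPC-1 against 0.15. TERF1 differed by 0.49 in B-CPAP against an upper quartile of 0.40, and by 0.22 in TPC-1 against 0.18. WRAP53 differed by -0.31 in B-CPAP against a lower quartile of -0.24, and by -0.30 in TPC-1 against -0.16. In B-CPAP DKC1 also lay above and NOP10 below their quartiles. POT1 and TERT lay within the quartiles of genes of like GC content in both lines.

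**Figure D4:**
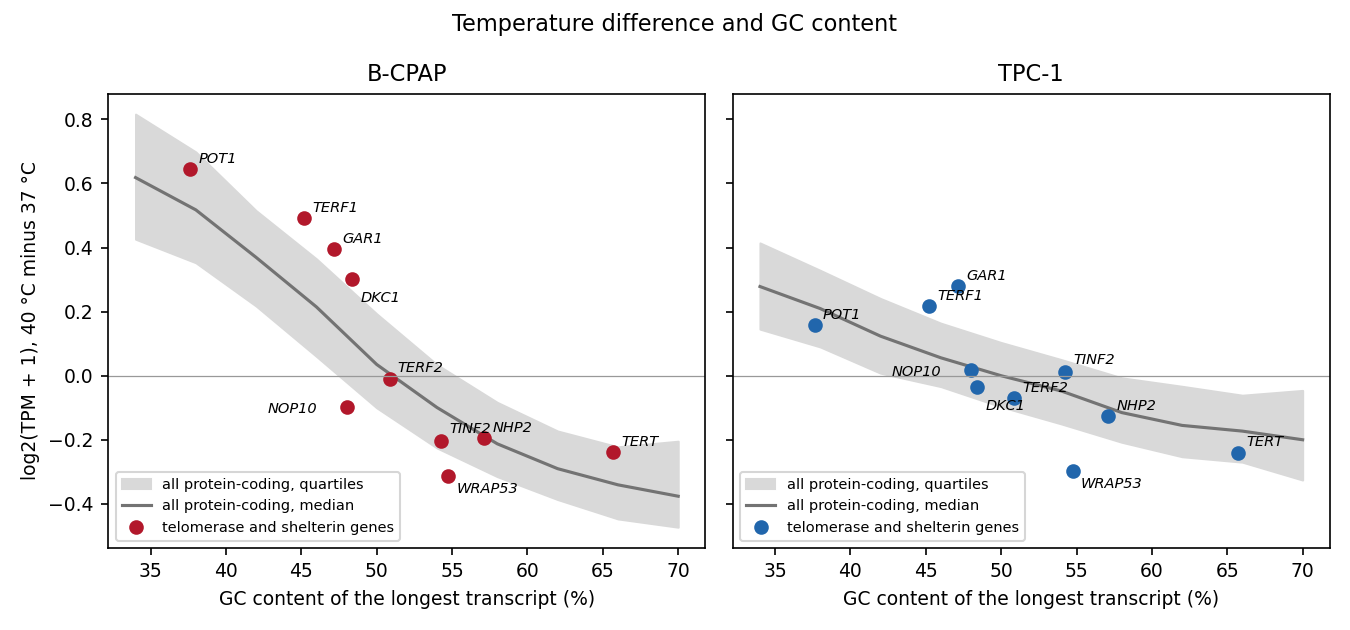
Difference of log2(TPM + 1) between 40 °C and 37 °C against GC content of the longest transcript, in B-CPAP (left) and TPC-1 (right); points are the 10 genes, the line is the median and the band the quartiles of all protein-coding genes in steps of 4 percentage points. The median goes from 0.62 at the lowest GC step to -0.38 at the highest in B-CPAP and from 0.28 to -0.20 in TPC-1, and GAR1, TERF1 and WRAP53 lie outside the band in both lines.

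The 2 shelterin subunits outside the 10 genes were on different sides. ACD, which recruits telomerase and pairs with POT1, stood at 32.2 TPM in B-CPAP at 40 °C, 43.0 TPM in B-CPAP at 37 °C, 21.7 TPM in TPC-1 at 40 °C and 23.2 TPM in TPC-1 at 37 °C. It was 0.71 ± 0.13 higher in B-CPAP (limma adjusted p of 0.00619). TERF2IP, the partner of TERF2, stood at 46.3 TPM in B-CPAP at 40 °C, 38.5 TPM in B-CPAP at 37 °C, 54.2 TPM in TPC-1 at 40 °C and 50.9 TPM in TPC-1 at 37 °C and was lower in B-CPAP by limma (-0.31 ± 0.10, adjusted p of 0.0458). With these, shelterin had 1 subunit higher in B-CPAP, 3 lower and 2 not called, beside 29.9% of all genes called higher and 32.8% lower. With so few subunits these counts are a description and are not read as differing from those shares.

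Genes that assemble H/ACA complexes or mature the telomerase RNA went both ways between the lines. Of 11 listed, 10 were tested, of which 4 were higher and 3 lower in B-CPAP, beside 29.9% and 32.8% of all genes, with a median log2 difference of 0.23 beside -0.050 for all genes. TOE1, an exonuclease that trims the RNA's 3' end, stood at 38.0 TPM in B-CPAP at 40 °C and 42.7 TPM in B-CPAP at 37 °C, against 14.3 TPM in TPC-1 at 40 °C and 13.7 TPM in TPC-1 at 37 °C. SHQ1, the chaperone of newly made dyskerin, was at 1.99 times its TPC-1 level in B-CPAP at 40 °C and 2.09 times at 37 °C, and RUVBL2, an ATPase of the assembly machinery, was at 1.40 times at 40 °C and 1.54 times at 37 °C. TENT4B, a polymerase that adds A tails which lead to decay of the RNA, was at 0.544 times its TPC-1 level in B-CPAP at 40 °C and 0.421 times at 37 °C. ZCCHC8, of the nuclear exosome's targeting complex, was at 0.770 times at 40 °C and 0.580 times at 37 °C. By limma all 5 were called between the lines and none between temperatures.

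Of 14 listed genes of telomere replication, capping and length control, 12 were tested, of which 1 was higher and 6 lower in B-CPAP, beside 29.9% and 32.8% of all genes, with a median of -0.67 beside -0.050 for all genes. STN1 and CTC1, subunits of the CST complex that fills in the C-rich strand, were lower in B-CPAP by limma, with adjusted p-values of 0.000217 for STN1 and 0.000496 for CTC1. STN1 stood at 6.18 TPM in B-CPAP at 40 °C and 4.96 TPM in B-CPAP at 37 °C, against 30.8 TPM in TPC-1 at 40 °C and 30.0 TPM in TPC-1 at 37 °C. CTC1 stood at 4.64 TPM in B-CPAP at 40 °C and 5.53 TPM in B-CPAP at 37 °C, against 17.6 TPM in TPC-1 at 40 °C and 19.3 TPM in TPC-1 at 37 °C. TNKS2, a tankyrase that releases TERF1 from telomeres, was at 0.383 times its TPC-1 level in B-CPAP at 40 °C and 0.306 times at 37 °C. TERF1 RNA was lower in B-CPAP too, as given above, and a link between TNKS2 and TERF1 was not tested. TEN1 and RTEL1 were under the filter, and their reads may be shared with read-through genes.

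Between temperatures, the ratios of RIF1 and ATRX in B-CPAP were above those of all 10 genes. ATRX, a chromatin remodeller at telomeres, stood at 9.40 TPM in B-CPAP at 40 °C and 2.84 TPM in B-CPAP at 37 °C, a ratio of 3.31 (interval 2.96 to 3.71), against 6.06 TPM in TPC-1 at 40 °C and 6.33 TPM in TPC-1 at 37 °C, a ratio of 0.957 (interval 0.861 to 1.06). RIF1, a regulator of replication timing and repair, had a ratio of 2.84 in B-CPAP (interval 2.56 to 3.16) and 1.248 in TPC-1 (interval 1.11 to 1.40). The longest transcripts of ATRX and RIF1 had GC contents of 36.9% and 37.3%, and after GC adjustment their log2 differences in B-CPAP were 1.02 for ATRX and 0.89 for RIF1. The limma adjusted p over both lines was 0.335 for ATRX and 0.242 for RIF1.

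All 12 listed factors of the TERT promoter were tested, and 2 were higher and 7 lower in B-CPAP, beside 29.9% and 32.8% of all genes, with a median of -0.53 beside -0.050 for all genes. SP1 stood at 0.524 times its TPC-1 level in B-CPAP at 40 °C and 0.467 times at 37 °C. The ETS factors ETV5 (0.395 times at 40 °C and 0.458 times at 37 °C), ETV1 (0.555 times at 40 °C and 0.484 times at 37 °C) and ETV4 (0.641 times at 40 °C and 0.623 times at 37 °C) were lower in B-CPAP as well. GABPA and GABPB1, the DNA-binding and activating subunits of the ETS complex reported at mutant TERT promoters, went apart. GABPA stood at 9.27 TPM in B-CPAP at 40 °C and 3.999 TPM in B-CPAP at 37 °C, against 11.6 TPM in TPC-1 at 40 °C and 9.35 TPM in TPC-1 at 37 °C. GABPB1 stood at 13.6 TPM in B-CPAP at 40 °C and 8.73 TPM in B-CPAP at 37 °C, against 7.20 TPM in TPC-1 at 40 °C and 6.20 TPM in TPC-1 at 37 °C. By limma GABPA was lower and GABPB1 higher in B-CPAP (-0.67 ± 0.22 with an adjusted p of 0.0453 for GABPA, and 0.63 ± 0.17 with an adjusted p of 0.0228 for GABPB1). MYC, at 105.5 to 116.5 TPM, was not called. The ratio of GABPA at 40 °C over 37 °C was 2.32 in B-CPAP (interval 1.92 to 2.81; log2 difference after GC adjustment, 0.61) and 1.245 in TPC-1 (interval 1.07 to 1.45). None of the 12 was called between temperatures.

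**Figure D5:**
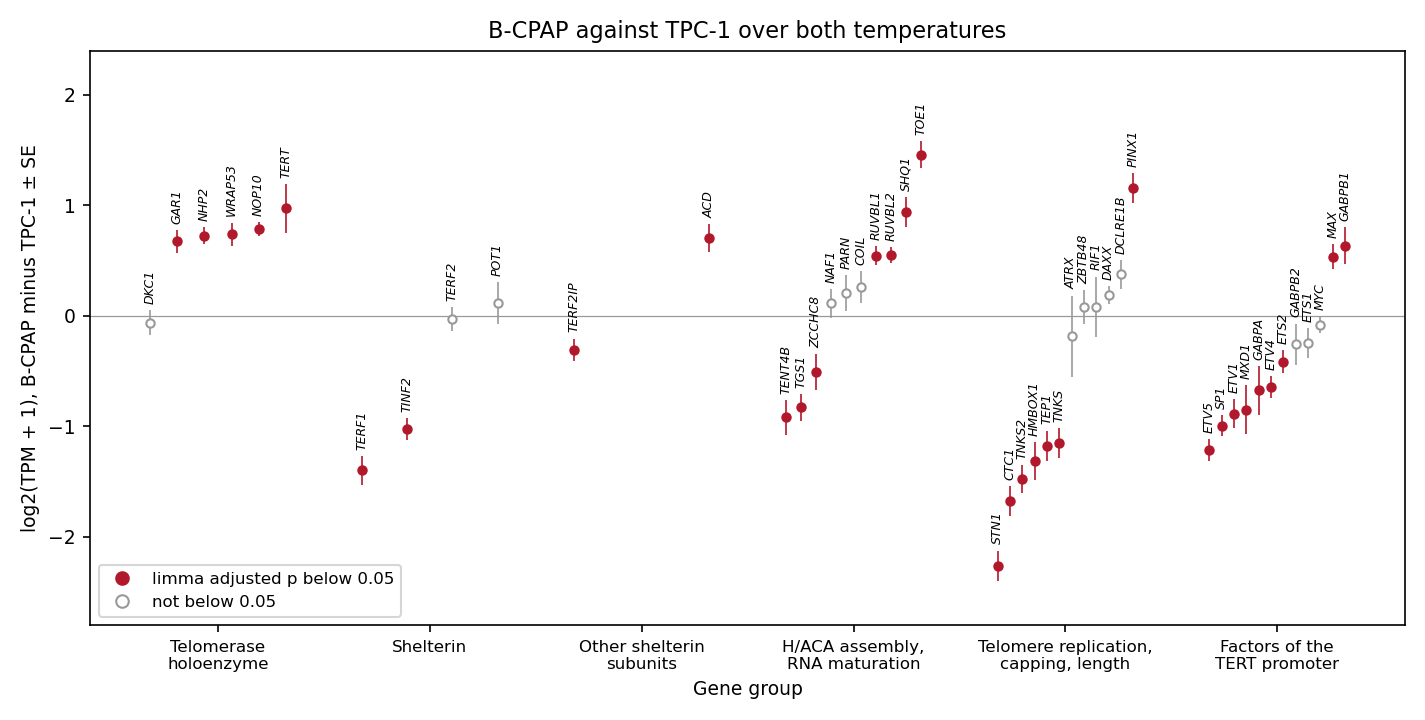
Limma difference between B-CPAP and TPC-1 over both temperatures (log2(TPM + 1) ± SE) for each tested gene by group; filled points had an adjusted p below 0.05. The telomerase genes other than DKC1 lie above 0, and STN1 and CTC1 lie lowest at -2.26 and -1.68. As calls, 7 of the 12 factors of the TERT promoter lie below 0 and 2 above 0. Of all genes, 32.8% were called lower and 29.9% higher in B-CPAP.

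Among the 5 genes most like TERT over the 4 libraries were PFAS, TTLL11, TSKU and ALG1, with root mean square differences of centred log2(TPM + 1) from TERT of 0.0150 to 0.0229. PFAS, an enzyme of purine synthesis, stood at 65.1 TPM in B-CPAP at 40 °C, 78.5 TPM in B-CPAP at 37 °C, 33.2 TPM in TPC-1 at 40 °C and 38.6 TPM in TPC-1 at 37 °C. TTLL11 modifies tubulin, TSKU is a secreted protein and ALG1 is a mannosyltransferase of N-glycan synthesis. The likeness holds on the log2(TPM + 1) scale, which shrinks the line difference of TERT to 0.97, against 1.49 with a pseudocount of 0.1. In TPM the ratio of B-CPAP over TPC-1 was larger for TERT than for PFAS. Over 4 libraries many genes share any given pattern, and 257 were within 0.1 of TERT by this measure. For TERT, at 21 to 108 reads, counting error is larger than these distances.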

How the data were processed

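The deposited table holds TPM for 58884 Ensembl gene IDs in 4 libraries, and each column sums to 1000000. The labels' protocols name RNeasy Plus for extraction and the TruSeq RNA Library Prep Kit v2, which does not mark strand. The authors made the deposited TPM with Trimmomatic 0.38, featureCounts 2.0.0, FastQC and MultiQC on GRCh38, per the submitters' processing notes; neither the aligner nor the annotation release is given in the sources used here. Symbols came from a name table, and coordinates, exon lengths and GC contents from GENCODE 29 on GRCh38, which held 58611 of the IDs.

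The scale was log2(TPM + 1), for the 14912 genes averaging 1 TPM or more. In R 4.3.3, limma 3.58.1 compared the temperatures with a block for the line, and the lines with a block for temperature. Both fits were two-sided with a trend on intensity, with Benjamini-Hochberg adjustment over all genes tested. The fit was also run on simulated data with noise set from these 4 libraries, which cannot speak to the spread between cultures. Nothing in the labels says that libraries came from separate cultures beyond line and temperature. Reads were estimated as TPM times exon length over each library's step. They gave exact 95% intervals of TPM ratios, which cover counting error of 2 libraries only (Python 3.11.15, SciPy 1.17.1). Promoter sequences are from RefSeq. The 10 genes and the lists were chosen with earlier results of these data known. From each list up to 3 genes with the largest mean difference by temperature and by line were named, and both other shelterin subunits. The 5 genes nearest to TERT by root mean square were taken. Some genes that these rules or the marker lists take are not reported here. The genes of like GC content (within 2 percentage points) were an added description. Alternatives were other pseudocounts (0.1 and 5), filters (none, and 5 TPM), centring, quantile normalization, rescaling without mitochondrial genes, GC adjustment by a spline with 5 degrees of freedom, protein-coding genes only, other limma settings, leaving out libraries, 1.5-fold, and lengths of the longest transcript.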

Additional observations from a re-analysis of the deposited data

Results flagged for a closer look

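For 3 genes the library at 40 °C and the library at 37 °C were ordered oppositely in the lines in the TPM as deposited, which is why they are listed here. The log2 difference of 40 °C minus 37 °C in B-CPAP minus that in TPC-1 was 0.338 for DKC1, -0.117 for NOP10 and -0.215 for TINF2. DKC1 differed by 0.30 in B-CPAP and by -0.036 in TPC-1, NOP10 by -0.098 in B-CPAP and by 0.019 in TPC-1, and TINF2 by -0.20 in B-CPAP and by 0.011 in TPC-1. Each line had 1 library per temperature, so the difference between the lines was not tested. The opposite order depends on the scaling. With median centring NOP10 and TINF2 were lower at 40 °C in both lines, and with quantile normalization DKC1 and NOP10 were higher at 40 °C in both. Without mitochondrially encoded genes DKC1 was higher in both, and adjustment for GC content brought TINF2 in B-CPAP to -0.016.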

How the results depend on the processing

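None of the 10 genes was called between temperatures under any alternative run, while the number of all genes called, 0 as reported, was 2 with a pseudocount of 5, 867 at a mean TPM of at least 5, 49 with median centring and 1350 among protein-coding genes only. Genes 2-fold apart numbered 582 in B-CPAP and 519 in TPC-1. They were 1246 and 987 with a pseudocount of 0.1, 82 and 89 with a pseudocount of 5, 1143 and 1291 with no filter, 175 and 63 at a mean TPM of at least 5, 137 and 18 among protein-coding genes, and 2321 and 1176 at 1.5-fold, in B-CPAP and TPC-1. Between the lines, 9349 genes were called, and 2911 to 5719 with 1 library left out; of the 10 genes 7 were called under the other alternatives, except 6 with no filter and 6 at a mean TPM of at least 5, where TERT was not called or not tested. The number of genes whose interval lay off 1 was 8 in B-CPAP and 4 in TPC-1, and 8 and 3 with the length of the longest transcript.

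Signs turned for some differences near 0 and for some further from it, such as those of TERT and NHP2 between temperatures. Median centring moved the median difference of all genes in B-CPAP to -0.096, against 0.089 as reported, and in TPC-1 to -0.067, against 0.027. It put DKC1 at -0.0059 between temperatures and at 0.066 between lines, and TERF2 at 0.098 between lines. Quantile normalization put NOP10 at 0.074 over both lines and at 0.077 in B-CPAP between temperatures, and TERF2 at 0.027 between lines. Without mitochondrially encoded genes NOP10 was at 0.0054 and TERF2 at 0.0038 between temperatures, and DKC1 was at 0.019 and TERF2 at 0.050 between lines. Adjustment for GC content put TERT at 0.063 between temperatures over both lines, against -0.24 as reported, and NHP2 at 0.031, against -0.16. In B-CPAP it put TERT at 0.20, against -0.24, and NHP2 at 0.062, against -0.20. It put TINF2 at 0.037 and TERF2 at 0.016 between temperatures over both lines. The cause was not tested.

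Fits without 1 library had no block, because none leaves residual degrees of freedom with it, so their temperature differences mix in those of the lines, and a lone library was assumed to vary like the others. The temperature difference then ran from -0.73 to 0.25 for TERT, -0.46 to 0.38 for NOP10, -0.54 to 0.22 for NHP2, -0.028 to 0.70 for GAR1, -0.68 to 0.067 for WRAP53, -0.66 to 0.47 for TINF2 and -0.42 to 1.12 for TERF1. The line difference ran from -0.21 to 0.088 for DKC1, -0.21 to 0.44 for POT1 and -0.066 to 0.0039 for TERF2. The reported fits pair the libraries by line or by temperature; without that block 7 of the 10 genes were called between the lines and 0 between temperatures. Depth limits TERT, at 21 to 108 reads, most.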
